A study of Mus musculus with 4 samples.

Results

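Activator protein 1 (AP-1) is a family of basic leucine zipper (bZIP) transcription factors that bind DNA as dimers. The 10 genes examined here were Fos, Fosb, Fosl1, Fosl2, Jun, Junb, Jund, Atf3, Batf and Maff, taken by gene symbol as AP-1 proteins or their bZIP partners, out of 18193 genes to which the array annotation assigns at least 1 probe set of their own. They have 14 such probe sets (Fosl1, Fosl2, Jun and Jund have 2 each). All 10 genes passed the filter on low signal (a mean signal above 10.6 over the 4 arrays). Fos, Jun and Atf3 genes are textbook early response genes: kinases of the MAP kinase cascades act on factors already bound at their promoters, so the transcripts appear within minutes of a stimulus and decay quickly. Taking a tissue apart into single cells is one known stimulus. In B lineage cells Batf is also known as a partner of Jun proteins that binds together with Irf4.

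The RNA came from IgA-positive cells of the small intestine of untreated female BALB/c mice aged 9 weeks, with wild type given in the sample titles, and was hybridised to Affymetrix 3' expression arrays. CD11b, an integrin chain best known from myeloid cells, divided them into cells with it at the surface (CD11b-positive, 2 arrays) and cells without (CD11b-negative, 2 arrays). Each fraction has 1 array labelled by the One-Cycle kit (1 µg of RNA) and 1 by the 3' IVT Express kit (0.1 µg), so the kit and the amount of RNA change together. Nothing in the labels ties these arrays to different mice, pools or sorts, so a p-value here reflects the spread of these arrays alone, which may be technical. Precision is limited by having 4 arrays. In RNA of sorted bulk cells, fewer cells of a type and less RNA per cell cannot be told apart.

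Values are array signals after quantile normalization, which gives the 4 arrays the same distribution, and are listed for the One-Cycle array first and the 3' IVT Express array second. The signal scale differs between probe sets, so levels are compared only within a probe set. Itgam, the gene of CD11b, had signals of 189 and 109 on the CD11b-positive arrays, against 28.3 and 15.8 on the CD11b-negative ones, the direction the sort would give. Igha and Jchain, transcripts that mark IgA plasma cells, lay between 11010.3 and 12633 in every array. These are top values of the signal range, which quantile normalization makes the same on each array. Their closeness therefore does not measure plasma cell content. Pairs of arrays correlated with Pearson's r of 0.928 to 0.955, taken across genes that are not independent. Arrays of the same fraction were no more alike than arrays of the same kit. For a shared fraction r was 0.953 (CD11b-positive) and 0.935 (CD11b-negative). For a shared kit it was 0.951 (One-Cycle) and 0.955 (3' IVT Express). Shortened RNA gives a higher 3' to 5' ratio of control probes; for beta-actin this was 1.43 and 1.61 (CD11b-positive) against 1.90 and 1.84 (CD11b-negative), so it moved with the fraction, and its part in the values below was not tested. For Gapdh the ratio was 0.682 and 0.710 against 0.685 and 0.704.

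Promoter sequence was available for 9 of the 10 genes (RefSeq, GRCm38.p6); Fosl1 had no entry. The stretches below are the 150 bases before an annotated start of Fos, Fosb, Junb and Batf. Fosb and Junb are the members lower by at least 2-fold in both kits, and Batf is a member whose arrays overlapped. The Fosb start used lies inside the annotated span of the gene, which ends at position 19310118, so part of the Fosb stretch does too. The stretches show a feature that the choice of members did not use. Capitals mark TGACG, the core of the cyclic AMP response element bound by CREB and ATF proteins.

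Fos, chr12:85473740-85473889, plus strand: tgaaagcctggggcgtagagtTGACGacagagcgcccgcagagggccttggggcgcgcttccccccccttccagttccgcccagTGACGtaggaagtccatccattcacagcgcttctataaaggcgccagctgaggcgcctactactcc
Fosb, chr7:19310046-19310195, minus strand: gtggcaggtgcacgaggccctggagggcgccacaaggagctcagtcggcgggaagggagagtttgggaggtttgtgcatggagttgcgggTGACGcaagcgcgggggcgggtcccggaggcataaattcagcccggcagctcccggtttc
Junb, chr8:84978749-84978898, minus strand: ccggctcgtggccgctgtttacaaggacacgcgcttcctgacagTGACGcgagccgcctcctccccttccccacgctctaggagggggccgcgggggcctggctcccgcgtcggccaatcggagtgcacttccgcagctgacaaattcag
Batf, chr12:85686570-85686719, plus strand: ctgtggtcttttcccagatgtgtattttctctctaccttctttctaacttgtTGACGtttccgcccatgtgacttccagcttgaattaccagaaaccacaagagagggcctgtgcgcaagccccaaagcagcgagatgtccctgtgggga

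In the 250 bases before each start, searched on both strands, TGACG occurred for 6 member genes (Fos, Fosb, Junb, Atf3, Batf and Maff), in 7 of the 11 annotated windows of the 9 genes, against 17.8% of all 32851 windows. It begins 129 and 66 bases before the start in Fos, 60 in Fosb, 106 in Junb, 98 in Batf and 7 in Atf3. In Maff it begins 29 and 26 bases before the start in 1 window and 122 in the other. Both Maff windows lie inside the annotated span of the gene. The full element TGACGTCA, which contains TGACG on both strands, occurred in 1 member window, of Maff, and in 1.55% of all windows. It begins there at 29, so the Maff matches at 29 and 26 are the 2 strands of 1 element. The AP-1 site TGANTCA and the CArG box bound by serum response factor occurred in 0 of the 11, against 6.75% and 1.47% of all windows. Jun, Jund and Fosl2 had none of these motifs in the window. Sites further from the start, or differing from these exact patterns, were not searched for, so a count of 0 does not mean that a gene lacks them. These matches describe the windows and are not shown to be bound.

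The members were compared between the fractions to see how this family differs in IgA-positive cells that carry CD11b. Of the 10 genes, 8 had a lower signal in CD11b-positive cells with both kits, where 30.5% of the 12650 genes tested did so, and 0 were higher in both, where 31.6% of all genes were. The arrays of the fractions did not overlap, with the CD11b-positive ones lower, for 7 members and for 17.3% of all genes, and with them higher for 0 members and 18.1% of all genes. The median log2 difference, CD11b-positive minus CD11b-negative, was -0.72 over the members and 0.00253 over all genes. Within the kits the members' median was -0.54 (One-Cycle) and -0.83 (3' IVT Express). Fosb and Junb were lower by at least 2-fold in both kits, which held for 1.11% of all genes.

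With limma on fraction alone, 0 of 12650 genes passed at an adjusted p under 0.05 (0%), so 0 members did; at an unadjusted p under 0.05 there were 459 lower and 386 higher genes, with 5 members among the lower (3.63% of genes) and 0 among the higher (3.05%). With a replicate block for the labelling kit, 6 members passed as lower (Fos, Fosb, Jun, Junb, Jund and Atf3), against 4.69% of genes lower and 4.41% higher. Each gene then has 1 residual degree of freedom, and the model leans on a variance shared between genes of like signal, worth 64.7 degrees of freedom. With the block and genes filtered by mean log2 signal that variance was worth 25.6 degrees of freedom, and 6 members passed, against 4.14% of genes lower and 3.73% higher. Without that trend of variance on signal the blocked model called 0 genes, and the 10 members had adjusted p from 0.383 to 0.812. Adjusted p-values written below "with the block" come from the blocked model with the trend.

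**Figure D1:**
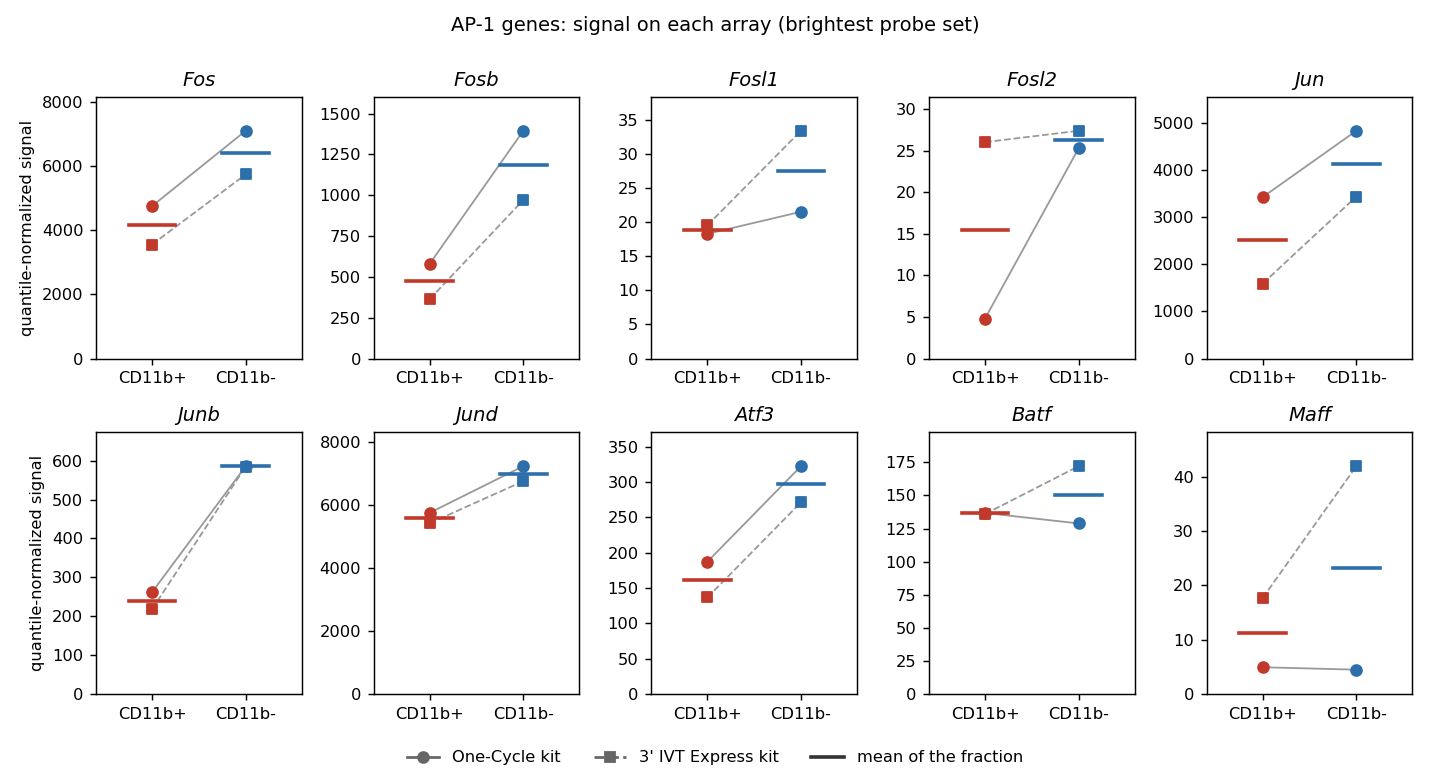
Quantile-normalized signal (vertical axis, linear, from 0, a scale for each gene) of the brightest probe set of each AP-1 gene. Red points are CD11b-positive and blue points CD11b-negative arrays, circles and solid lines the One-Cycle kit, squares and dashed lines the 3' IVT Express kit, and bars the mean of the 2 arrays. Both CD11b-positive points lie below both CD11b-negative points for Fos, Fosb, Fosl1, Jun, Junb, Jund and Atf3.

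Among the Fos proteins, which dimerise with Jun proteins and not with each other, Fosb differed between the fractions by about as much as Junb. Its signals were 581 and 364 on the CD11b-positive arrays, against 1395 and 971 on the CD11b-negative ones. The higher CD11b-positive array thus lay below the lower CD11b-negative one, and the difference was of like size in both kits (log2 -1.26 and -1.41). The mean was 472 ± 153 against 1183 ± 299.7 (SD, n = 2 each), 2.52-fold lower, with a log2 difference of -1.34 ± 0.29 (SE; limma adjusted p = 0.514, and 5.97e-15 with the block).

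Fos itself, the partner of Jun in the classical AP-1 dimer, had signals of 4752 and 3554 on the CD11b-positive arrays, against 7099 and 5738 on the CD11b-negative ones. It was lower in both kits, by less than Fosb (log2 -0.58 and -0.69), and the fractions did not overlap. The mean was 4153 ± 847 against 6419 ± 962 (SD, n = 2 each), a 1.55-fold lower signal with a log2 difference of -0.63 ± 0.18 (SE; limma adjusted p = 0.614, and 3.87e-09 with the block). Fos ranked between 66 and 257 of the probe sets on every array, near the top of the signal range.

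Fosl1 and Fosl2 encode Fra-1 and Fra-2, Fos proteins without the activation domain of Fos. Both were dim. Fosl1 had signals of 18.3 and 19.6 on the CD11b-positive arrays, against 21.5 and 33.4 on the CD11b-negative ones. The groups did not overlap, with a ratio of 1.10 between their nearest arrays. Its log2 difference was -0.45 ± 0.40 (SE; limma adjusted p = 0.927, and 0.646 with the block), with a 95% interval of -1.40 to 0.50, and it ran from -0.73 without CD11b-negative replicate 1 to -0.16 without CD11b-negative replicate 2. The other Fosl1 probe set lay below the low-signal filter in all 4 arrays. Fosl2 had signals of 4.81 and 26.04 on the CD11b-positive arrays, against 25.3 and 27.4 on the CD11b-negative ones, so 1 dim array, CD11b-positive One-Cycle, made its log2 difference of -0.96 ± 0.66 (SE; limma adjusted p = 0.891, and 0.283 with the block). Within the kits that difference was -1.86 and -0.066. Its other probe set gave -0.83 and 0.35, in opposite directions.

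Jun proteins pair with Fos proteins and with each other. Junb, a Jun protein that can oppose Jun at some of its targets, had signals of 262 and 218 on the CD11b-positive arrays, against 586 and 585 on the CD11b-negative ones. The fractions were separated by 2.23-fold between their nearest arrays, the widest such gap among the members. The mean was 239.8 ± 31.1 against 585 ± 0.631 (SD, n = 2 each), 2.43-fold lower, with a log2 difference of -1.28 ± 0.20 (SE; limma adjusted p = 0.480, and 1.39e-11 with the block). Its unadjusted p of 0.000426 was the smallest of the family.

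Jun had signals of 3425 and 1590.45 on the CD11b-positive arrays, against 4832 and 3435 on the CD11b-negative ones. Here the kits differed as much as the fractions did: the CD11b-positive One-Cycle array nearly equalled the CD11b-negative 3' IVT Express array, with a ratio of 1.003 between them. The log2 difference was -0.50 (One-Cycle) and -1.11 (3' IVT Express), and -0.80 ± 0.35 together (SE; limma adjusted p = 0.772, and 4.90e-10 with the block). A second Jun probe set went the same way, at 312 and 129.9 on the CD11b-positive arrays, against 624 and 324 on the CD11b-negative ones (log2 -1.15, lower in both kits).

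Jund, the Jun protein that many resting cells express, showed the smallest difference among the members that passed with the block. Its signals were 5750.1 and 5418 on the CD11b-positive arrays, against 7229 and 6753 on the CD11b-negative ones, a log2 difference of -0.32 ± 0.12 (SE; limma adjusted p = 0.687, and 0.00199 with the block). The fractions did not overlap, and the kits gave -0.33 and -0.32. Jund ranked between 62 and 131 of the probe sets. A dim second probe set of Jund gave -0.46 and 0.38 within the kits, in opposite directions.

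Atf3, a stress-induced factor that represses as a homodimer and also pairs with Jun proteins, had signals of 187 and 137 on the CD11b-positive arrays, against 322 and 271 on the CD11b-negative ones. The fractions did not overlap and both kits gave a lower value (log2 -0.77 and -0.97). The mean was 162 ± 35.8 against 297 ± 36.2 (SD, n = 2 each), 1.83-fold lower, with a log2 difference of -0.87 ± 0.25 (SE; limma adjusted p = 0.614, and 2.17e-05 with the block).

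Batf did not differ beyond the spread between arrays. Its signals were 137 and 136 on the CD11b-positive arrays, against 129 and 172 on the CD11b-negative ones, and the kits gave opposite directions (log2 0.084 and -0.33). The log2 difference was -0.12 ± 0.24 (SE; limma adjusted p = 0.961, and 0.782 with the block), with a 95% interval of -0.71 to 0.46. Differences anywhere within that interval, in either direction, are therefore compatible with these arrays. Maff, a small Maf protein that lacks an activation domain of its own, had signals of 4.92 and 17.7 on the CD11b-positive arrays, against 4.47 and 41.98 on the CD11b-negative ones. Both One-Cycle arrays lay below the low-signal filter, so Maff passed it through the other kit alone. Its log2 difference was -0.52 ± 0.95 (SE; limma adjusted p = 0.960, and 0.736 with the block), with 0.085 and -1.12 within the kits.

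**Figure D2:**
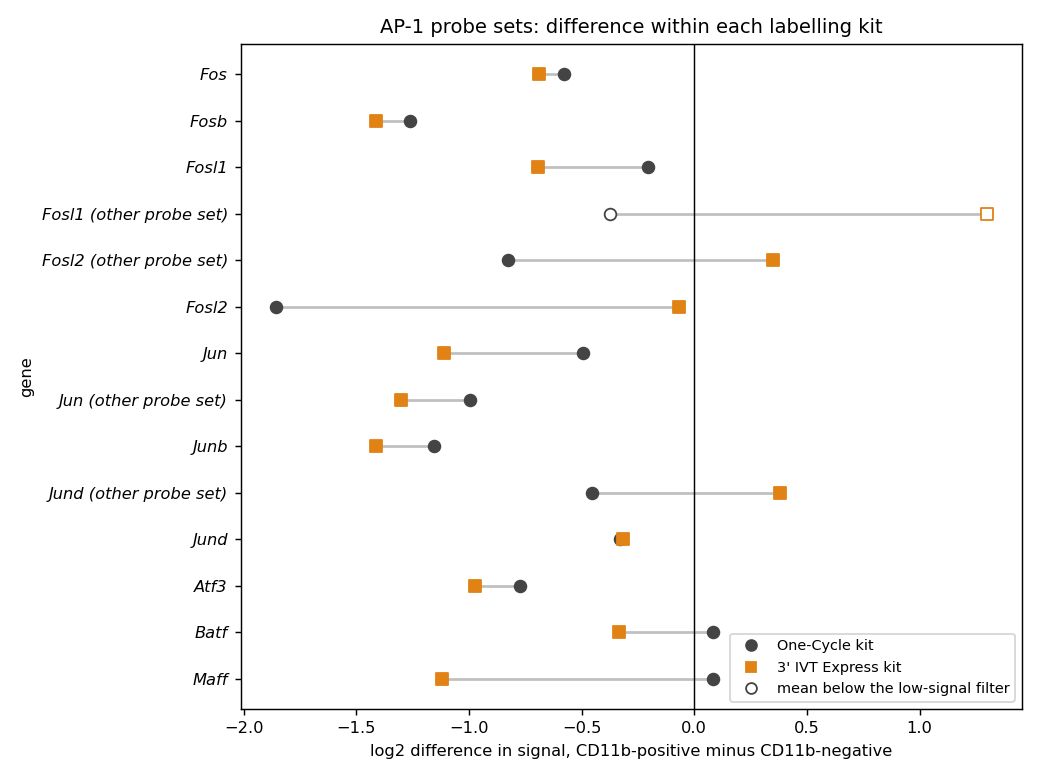
Log2 difference in quantile-normalized signal, CD11b-positive minus CD11b-negative (horizontal axis), within the One-Cycle kit (dark circles) and the 3' IVT Express kit (orange squares) for each of the 14 AP-1 probe sets; open symbols mark a mean below the low-signal filter. Fosb, Junb, Atf3, Fos, both Jun probe sets and the brightest probe sets of Jund, Fosl1 and Fosl2 lie left of 0 in both kits. Batf, Maff and the other probe sets of Fosl1, Fosl2 and Jund straddle 0.

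The size of these differences depends on how the arrays are put on a common scale. On the signals as deposited, the median of all genes was itself 0.42 log2 higher in the CD11b-positive arrays. Deposited signals of Junb were 271 and 282 on the CD11b-positive arrays, against 371 and 587 on the CD11b-negative ones, and those of Fosb 591 and 483 against 873 and 968, still without overlap. Deposited Jun was 3437 and 2137 against 3229 and 3527, with the One-Cycle kit turned round, and deposited Jund 5588 and 7141 against 5446 and 7161, with a log2 difference of 0.017. Deposited Batf was 143 and 172 against 89.5 and 172. Relative to the median of all genes, all 10 members were lower under each of the 5 scalings run (quantile, as deposited, centred on the median, common trimmed mean and cyclic loess), and 8 of them in both kits, the exceptions being Batf and Maff. As deposited, median-centred and trimmed-mean signals differ by a factor per array, which taking off the median all but removes, so these 3 are in effect 1 comparison here. On that relative scale Fosb ran from -1.34 to -1.20, Junb from -1.29 to -1.17, Fos from -0.82 to -0.64, Jund from -0.51 to -0.33 and Batf from -0.15 to -0.090.

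**Figure D3:**
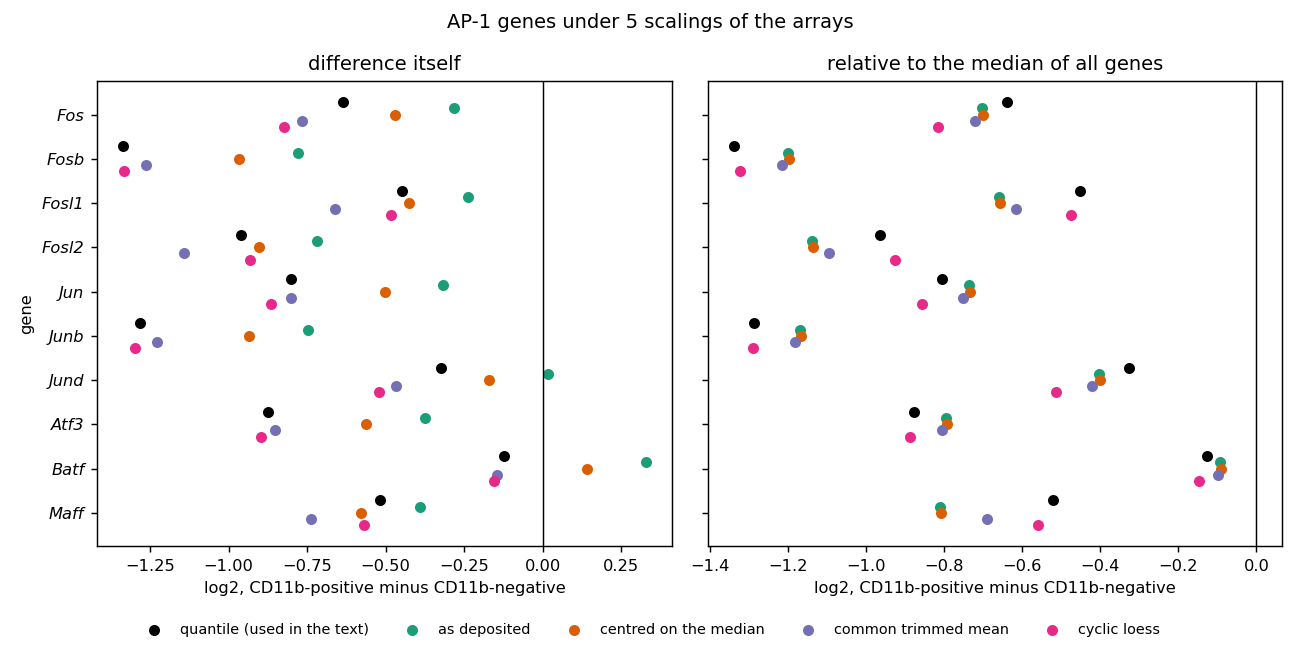
Log2 difference, CD11b-positive minus CD11b-negative, of each AP-1 gene under 5 scalings of the arrays (colours), as it is (left) and after taking off the median difference of all genes under the same scaling (right). On the left Jund and Batf lie above 0 under the deposited signals and Batf also after centring on the median, and all points on the right lie below 0.

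By the smallest distance over the 4 arrays between log2 signals centred on each gene's mean and the members' mean centred profile, the 5 genes most alike were Krtap5-5, Grasp, Hsd17b11, Etfrf1 and Ctsk, at distances of 0.0604 to 0.0836. Among the members the distance ran from 0.386 (Fosl1) to 1.95 (Maff). Grasp, for example, had signals of 862 and 909.8 on the CD11b-positive arrays, against 1432 and 1626 on the CD11b-negative ones. Krtap5-5, at 12.2 and 11.9 on the CD11b-positive arrays, lay near the low-signal filter. Neither it nor Ctsk passed with the block (limma adjusted p = 0.515 and 0.283). As the nearest of all genes tested, these 5 could lie closer to a mean profile than any member does. This likeness rests on 4 arrays.

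The genes around the family were read from lists chosen with earlier results of these data known, and described by counts. With limma on fraction alone 0 genes of every list passed, as across all genes, so the calls below are those with the block. Across all genes tested, 4.69% were called lower and 4.41% higher with the block. In both kits 30.5% of all genes were lower and 31.6% higher. Of 25 tested bZIP relatives, 12 were lower and 3 higher in both kits, their median log2 difference was -0.17, and 5 were called lower and 0 higher. Nfil3, a bZIP repressor, had signals of 56.2 and 114 on the CD11b-positive arrays, against 116 and 373 on the CD11b-negative ones (log2 -1.35, adjusted p = 1.10e-07 with the block). Cebpb was at -0.76, Nfe2l2, the oxidative stress factor Nrf2, at -0.50, Crem at -0.45 and Atf6, the endoplasmic reticulum stress sensor, at -0.42 (adjusted p = 1.50e-05, 0.0497, 0.0113 and 0.0108 with the block). The Nfe2l2 call was lost with the block and the filter by mean log2 signal (adjusted p = 0.0630). Atf5, at -0.37, did not pass (0.234). The Crem difference lay mostly in 1 kit, at -0.071 (One-Cycle) and -0.83 (3' IVT Express). Nfil3, Atf6 and Atf5 had arrays that did not overlap between the fractions.

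Of 27 tested genes of the MAP kinase cascades, 12 were lower and 6 higher in both kits, the median was -0.13, and 2 were called lower. These were Map2k3, which activates p38 kinases, at 329 and 473 on the CD11b-positive arrays, against 484 and 888 on the CD11b-negative ones (log2 -0.73, adjusted p = 9.49e-06 with the block), and Mapk13, a p38 kinase, at -0.95 (adjusted p = 0.0499, and 0.0692 with the block and the filter by mean log2 signal). Map3k8 was at -0.58 without passing (0.208). Mapk12 had signals of 12.5 and 24.4 on the CD11b-positive arrays, against 5.15 and 1.57 on the CD11b-negative ones, the second pair below the low-signal filter.

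The 15 tested factors that act on promoters of AP-1 genes had a median of -0.017, with 5 lower and 6 higher in both kits. Stat3 (log2 -0.49, adjusted p = 0.00688 with the block) and Crem were called lower, while Creb1 at 0.32 and Crtc2, a CREB coactivator, at 0.86 did not pass (0.209 and 0.196). Among 12 tested genes of AP-1 turnover and partners (median -0.080), 4 were lower and 5 higher in both kits. Irf8, which binds with Batf, was at 105 and 82.8 on the CD11b-positive arrays, against 184 and 160.04 on the CD11b-negative ones (log2 -0.86, adjusted p = 6.23e-04 with the block). Trib1, an adaptor of the ubiquitin ligase that degrades C/EBP proteins, was at -0.85 (adjusted p = 5.26e-06). Cops5, also named Jab1 for its binding to Jun, was higher at 0.49 (adjusted p = 0.0164), as was Ube2n, a ubiquitin-conjugating enzyme, at 0.55 (adjusted p = 0.00403). Nfatc1, a partner of AP-1 on composite sites, was at 0.48 and did not pass (0.222).

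Genes proposed in the literature as AP-1 targets did not move in 1 direction. Of 23 tested, 13 were lower and 6 higher in both kits, the median was -0.24, and 3 were called lower and 3 higher. Hbegf, a ligand of the EGF receptor, had signals of 56.7 and 43.5 on the CD11b-positive arrays, against 132 and 111 on the CD11b-negative ones (log2 -1.24, adjusted p = 3.48e-05 with the block). The metallothioneins Mt2 and Mt1, which bind metal ions, were at -0.81 and -0.63 (adjusted p = 8.98e-09 and 4.96e-06). Cxcl2, a neutrophil chemokine, stood the other way, at 432 and 203 on the CD11b-positive arrays, against 74.2 and 77.5 on the CD11b-negative ones (log2 1.93, adjusted p = 2.16e-12). Ptgs2, the inducible cyclooxygenase, had 103 and 51.8 against 28.2 and 31.3 (log2 1.22, adjusted p = 0.00232). Vim, vimentin, was at 0.35 (adjusted p = 0.0185), with 0.62 (One-Cycle) and 0.076 (3' IVT Express) within the kits. A further 11 genes of this list, Il2, Il6 and Ccl2 among them, lay below the low-signal filter.

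Other early response genes stood closer to the AP-1 members. Of 32 tested, 25 were lower and 2 higher in both kits, the median was -0.59 (quartiles -0.84 and -0.33), and 19 were called lower and 1, Klf2, higher. Dusp1, a phosphatase of MAP kinases, had signals of 605 and 419 on the CD11b-positive arrays, against 1630.3 and 1280.3 on the CD11b-negative ones (log2 -1.51, adjusted p = 6.64e-18 with the block). Egr1, a zinc finger factor induced with Fos, had 306 and 247 against 529 and 765 (log2 -1.20, adjusted p = 3.83e-10). Ppp1r15a and Ier5 were at -0.94 and -0.82. Klf2, a factor of quiescent lymphocytes, was at 0.33 (adjusted p = 0.0424 with the block). That call was lost with the block and the filter by mean log2 signal (adjusted p = 0.0774). Within the kits Klf2 was at 0.056 (One-Cycle) and 0.61 (3' IVT Express).

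Genes known to respond to tissue dissociation, of which 16 of 32 tested are also on the early response list (50% of each), had a median of -0.65, with -0.56 and -0.71 within the kits. In both kits 27 of them were lower and 3 higher, and 21 were called lower and 1, again Klf2, higher, with the same loss of the Klf2 call. Nfkbia, an inhibitor of NF-kB that NF-kB induces, had signals of 3877 and 3498 on the CD11b-positive arrays, against 6685 and 5750.1 on the CD11b-negative ones (log2 -0.75, adjusted p = 2.80e-11 with the block). The list moved with the AP-1 members; its part in their values was not tested.

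**Figure D4:**
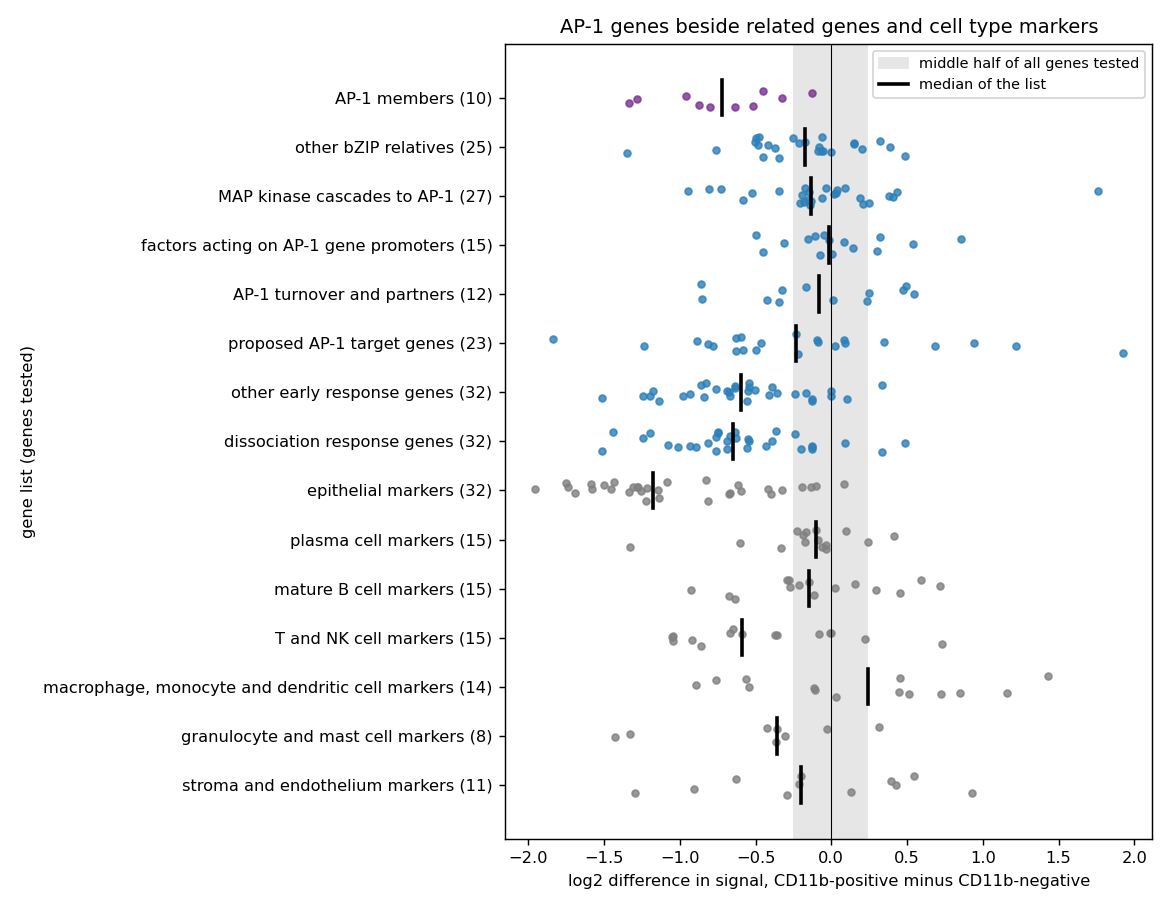
Log2 difference in signal, CD11b-positive minus CD11b-negative (horizontal axis), of each tested gene (points) in the AP-1 family (purple), in related lists (blue) and in cell type marker lists (grey), with the number of genes tested in brackets. Black bars are list medians, -0.72 for the AP-1 members and -1.18 for the epithelial markers, and the grey band holds the quartiles of all genes, -0.25 to 0.24.

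Of the marker lists, those of epithelium, of T and NK cells and of granulocytes and mast cells had medians below the lower quartile of all genes (-0.25). The medians of the other lists were not below it, though 12 of 15 plasma cell markers were lower in both kits. Of 32 tested epithelial markers, 28 were lower and 0 higher in both kits, with a median of -1.18 and 23 called lower with the block, and their summed signal was 6247 and 4228 on the CD11b-positive arrays, against 11162 and 10469 on the CD11b-negative ones. The brightest were Lyz1 (log2 -0.68) and Krt8 (-1.50), and Cdx1 lay below the filter. Of 15 T and NK cell markers 8 were lower and 1 higher in both kits (median -0.59, 8 called lower with the block; summed signal 3023 and 1636 against 5858 and 2326), with Gzma at -0.59 and Ccl5 at -1.05. Macrophage, monocyte and dendritic cell markers had a median of 0.24 over 14 genes, 4 lower and 5 higher in both kits. Their summed signal was 2495 and 2718 against 3616 and 3917. Most of that sum was Cst3 (log2 -0.76), at 1744 and 2123 against 3085 and 3439, so the sum mainly follows this gene and not the list. Lyz2 was at 0.51, while Cx3cr1, Clec10a, Mrc1, Cd163 and Xcr1 lay below the filter. Granulocyte and mast cell markers had -0.36 over 8 genes, 5 lower and 1 higher in both kits (289 and 211 against 390 and 306), with Mcpt2 at -0.36 and Prg2 at -1.43; S100a8, S100a9, Cxcr2, Epx, Siglecf, Ccr3 and Il5ra lay below the filter. Stroma and endothelium markers had -0.20 over 11 genes, 3 lower and 3 higher in both kits with 0 called by the blocked limma fit (262 and 295 against 246 and 316), with Col1a2 at 0.13 and Acta2 at -0.29; Pdgfra, Pdgfrb, Myh11, Des and Vwf lay below the filter. Mature B cell markers had -0.15 over 15 genes, 5 lower and 4 higher in both kits (15875 and 14261 against 18361 and 14931), with Ighm at -0.29 and Cd74 at 0.45. Plasma cell markers had -0.099, with 12 of 15 lower and 2 higher in both kits. Their summed signals were 58273 and 58591 against 61337 and 62542. Igha was at -0.099 and Jchain at 0.099, both among the top values that quantile normalization makes the same on each array. Calls with the block, lower and then higher, were 3 and 1 for plasma cell and 2 and 3 for mature B cell markers. They were 1 and 2 for macrophage, monocyte and dendritic cell markers, and 1 and 0 for granulocyte and mast cell markers. The part of these cell types in the AP-1 values was not tested.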

How the data were processed

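RNA from 2 CD11b-positive and 2 CD11b-negative samples was measured on 1 array each. The deposited values are intensity values, a linear signal per probe set, from MAS5 in Expression Console (per the submitters' processing notes), for which no version or scaling target was given in the sources used here. The arrays were not on a common scale (2% trimmed means 73.8 and 90.3 for CD11b-positive, 48.6 and 70.05 for CD11b-negative cells), so they were quantile-normalized after leaving out 64 control probe sets of 45101. Signals were log2-transformed after adding 3, so fold changes understate differences of dim genes. Of the other probe sets, 34945 name 1 gene, 932 several and 9160 are unnamed here; names come from the platform annotation, and for all 14 member probe sets symbol and gene identifier matched the RefSeq gene table. Probe sets above the 40th percentile of mean signal were kept, with the brightest per gene. The test of the 12650 genes left was limma's moderated one (version 3.58.1; R 4.3.3), 2-sided, with the variance trended on signal and p adjusted by Benjamini-Hochberg over all of them at a threshold of 0.05, on fraction alone and with a block for the labelling kit. The labels name the kit, so it pairs the fractions; deviations from the fraction means of arrays sharing a kit correlated across genes (r = 0.385). With 2 arrays a fraction, exact permutation reaches p = 0.333 at best. The fit was tested on simulated data.

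Members and lists were chosen with earlier results of these data known. Genes named beside the members were, per related list, the 4 with the smallest p on fraction alone and those of any call count of 5 or fewer; per marker list the 2 brightest; Itgam; and the 5 genes nearest the members' mean profile. Genes named only as below the filter or not analysed, and Klf2, whose single call is a count of 1, complete them. Alternatives were other pseudocounts, scalings, filters, probe set choices, the block, no trend and leaving out each array.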

Additional observations from a re-analysis of the deposited data

How the results depend on the processing

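The median log2 difference of the AP-1 members was -0.72 and moved by less than 1 SD between the kits (0.209) under every alternative but the signals as deposited, where it was -0.35. Lower in both kits were 8 members, but 4 as deposited, 6 with the mean of all probe sets, and 6 of the 7 left by the filter at the 70th percentile. Leaving out 1 array, which leaves the kits uneven and a fraction of 1 array whose spread is assumed to be that of the other, gave medians from -0.85 to -0.57 and 0 to 2 members called lower; the 2 were Fosb and Jun without CD11b-positive replicate 1. Over all genes, these fits called 0 to 37 lower and 0 to 2 higher. Under a replicate block for the kit, 6 members, and 593 genes lower and 558 higher, were called; with the block and a filter by mean log2 signal, chosen after seeing the data, 6 members, 524 lower and 472 higher; with the block and no trend, also chosen after seeing the data, 0. The block changed no call of Fosl1, Fosl2, Batf or Maff. The cause of these changes was not tested, beyond the shared variance that the blocked model needs.

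Directions turned as follows, on the log2 scale. As deposited, Jund was at 0.017, Batf at 0.33, Acta2 at 0.035, Atf5 at 0.10, Atf6 at 0.15, Crem at 0.11 and Stat3 at 0.055, all below the 0.42 by which all genes shifted. After centring on the median Batf was at 0.14 and Jchain at -0.081. Jchain was also at -0.38 (trimmed mean) and -0.42 (cyclic loess). On leaving out 1 array Batf ran from -0.33 to 0.080, Maff from -1.81 to 0.78, Fosl2 from -1.91 to -0.014, Fosl1 from -0.73 to -0.16, Jun from -1.36 to -0.25 and Junb from -1.41 to -1.15. Without CD11b-negative replicate 1 Junb (-1.28) was further from 0 than Fosb (-1.07). Other named genes that turned in such a fit were Crtc2 (from -0.18 to 1.90), Gzma (from -1.23 to 0.057), Mcpt2 (from -1.25 to 0.53), Vim (from -0.084 to 0.78), Cd74 (from -0.14 to 1.04), Lyz2 (from -0.054 to 1.08), Cebpb (from -1.57 to 0.051), Klf2 (from -0.14 to 0.81) and Mt1 (from -1.28 to 0.030).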
